A study of Caenorhabditis elegans with 154 samples.

Results

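The genes described here are the UDP-glucuronosyltransferase (*ugt*) genes of *Caenorhabditis elegans*, chosen as every gene of the deposited tables whose WormBase symbol is *ugt-* followed by a number, with the isoform rows of a gene summed. The rule found 67 genes among the 46743 genes of the tables. RNA was sequenced from single L1 larvae (the first larval stage) that had hatched and arrested overnight without food in M9 buffer, and the compared groups differed in the number of eggs suspended per µL, which was 1, 5, 20 or 100. One set of larvae was N2, the wild-type strain, with 13, 22, 16 and 23 animals in the order of rising density. The other set came from matings of males with females of *fog-2(q71)*, an allele under which hermaphrodites make no sperm and so must be mated, with 14, 22, 20 and 24 animals. Every animal of both strains was starved, so the 4 densities are compared within starvation, not with fed animals.

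UDP-glucuronosyltransferases are membrane enzymes of the endoplasmic reticulum that move a sugar from a UDP-sugar, such as UDP-glucuronic acid or UDP-glucose, onto small fat-soluble molecules. This conjugation is the second phase of detoxification, after oxidation by cytochrome P450 enzymes. The conjugate is more soluble in water and can be exported by ABC transporters. Nematodes have a much enlarged family of these genes, and bacterial toxins and anthelmintic drugs given to *C. elegans* are recovered largely as sugar conjugates. The substrates of most single members are not known, so members are described below by their place in the genome and their level.

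All 67 members are annotated as protein coding in the Ensembl gene set of WBcel235, the assembly also called ce11. Chromosome V carried 42 of them, IV carried 12, I carried 5, X carried 4, III carried 3 and II carried 1. With neighbours less than 10 kb apart joined, 37 members fell into 11 tandem groups. The largest group, of 8 genes, lay on chromosome V between 4887165 and 4911399 and ran *ugt-12*, *ugt-11*, *ugt-9*, *ugt-10*, *ugt-67*, *ugt-8*, *ugt-14*, *ugt-13*. A group of 6 genes on the same chromosome lay between 7139475 and 7169281. For 14 members an exon overlapped one of another gene, and the library kit keeps no strand, so reads of such a pair on opposite strands cannot be told apart. Tandem copies can also share reads, and how alike their sequences are was not tested.

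The values are relative transcript levels (tpm), which correct for transcript length and sum to the same total in each animal but carry no read depth. A value of 0 in a single larva can mean too few molecules captured, so a member is called listed at 0 rather than absent. Genes at 1 tpm or more numbered 7243 to 17872 per animal. Their median was 13262.5 in *fog-2* at 100 eggs/µL against 11568 at 1 egg/µL, and 10298 against 9829 in N2. In N2 at 100 eggs/µL, 2 animals correlated with the rest of their group at a median r under 0.6 and stood apart from all other animals. Whole larvae were sequenced, so fewer cells of a type and less RNA per cell cannot be told apart. Animals of a density may have come from a single tube, and p-values then measure only the spread between these animals.

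The family as a whole made up a small part of the RNA. The summed level of the members per animal had a median of 1785 tpm in *fog-2* at 1 egg/µL and 2014.7 tpm at 100 eggs/µL. In N2 the medians were 1028 and 1221 tpm. The ranges of the low and high density overlapped in both strains, since *fog-2* animals spanned 837 to 3198 tpm at 1 egg/µL and 395 to 2912 tpm at 100 eggs/µL. The number of members at 1 tpm or more in an animal had a median of 37 in *fog-2* at 1 egg/µL and 46 at 100 eggs/µL, beside the larger number of detected genes given above. In N2 it was 32 and 33.

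Few members carried most of this RNA. Over all 154 animals, 31 members had a median of 0 tpm, 23 had a median of 10 tpm or more, and 3 were above 0 in every animal. The members with the highest medians were *ugt-23*, *ugt-50*, *ugt-46*, *ugt-18*, *ugt-54* and *ugt-5*. None of these 6 passed the test between 100 and 1 egg/µL over both strains. *ugt-23*, on chromosome X, had a median of 266 tpm in *fog-2* at 1 egg/µL (85.7 to 781) and 286 tpm at 100 eggs/µL (78.3 to 470). In N2 its median was 77.6 tpm at 1 egg/µL (27.6 to 353) and 187 tpm at 100 eggs/µL (0 to 419). The ranges overlapped in both strains. At 100 eggs/µL 19 of 23 N2 and 15 of 24 *fog-2* animals were above the median of their strain at 1 egg/µL, while 2 N2 animals were listed at 0. The fitted change was 0.07 ± 0.33 (log2, SE) over both strains and 0.13 ± 0.62 in N2.

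Changes between densities were fitted with limma on log2(tpm + 1), with Benjamini-Hochberg adjustment over all genes tested and a threshold of 0.05. Changes are thus on the log2(tpm + 1) scale, which understates those of low genes. Between 100 and 1 egg/µL over both strains, 62 of the 67 members had 1 tpm or more in at least 13 of the 74 animals and were tested. The members left out were *ugt-14*, *ugt-35*, *ugt-36*, *ugt-42* and *ugt-63*. At 100 eggs/µL 7 members were higher and 4 were lower, against 10.3% of all genes higher and 2.05% lower. The share of members higher (11.3%) was near that background, while 6.45% of members were lower. Of the higher members, *ugt-16*, *ugt-38*, *ugt-66* and *ugt-15* passed the filter only through the animals at 100 eggs/µL. The higher count thus says little against the background. The median change of the members was 0.29 on the log2 scale, beside 0.24 over all genes tested, and 43 members had a positive change (69.4%, against 69.8% of all genes).

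**Figure D1:**
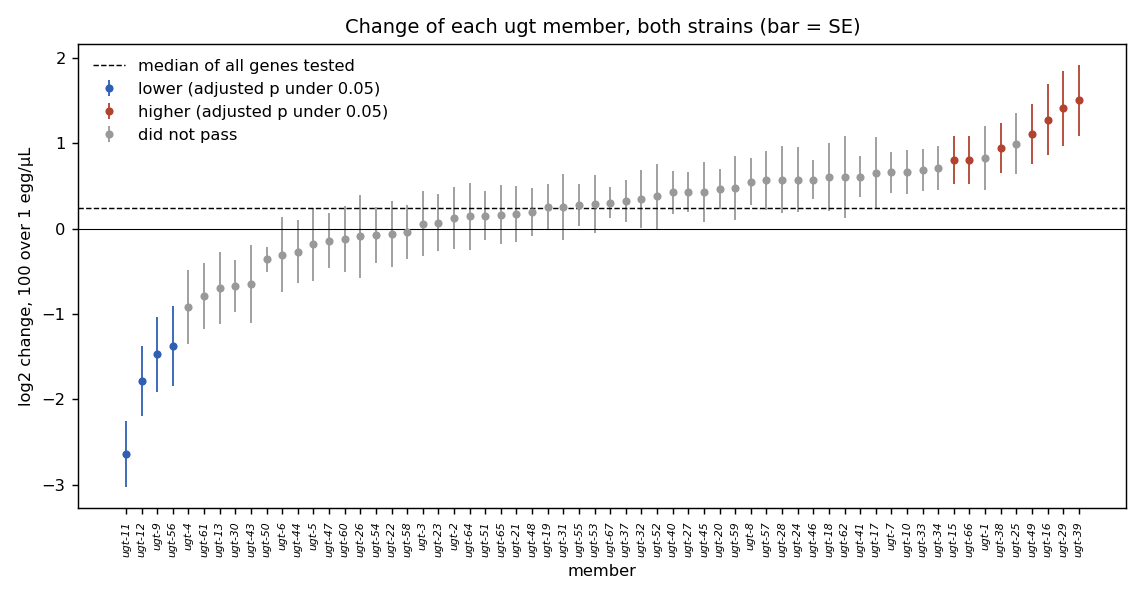
The log2 change of each of the 62 tested members between 100 and 1 egg/µL over both strains (points, with SE as bars), ordered along the x axis from lowest to highest. Blue marks the 4 members that were lower, led by *ugt-11* at -2.64, red the 7 that were higher, and the dashed line the median of all genes tested, 0.24.

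*ugt-11* (sequence name T19H12.10, chromosome V, 4892588 to 4895071) fell with density in both strains. In *fog-2* its median was 61.9 tpm at 1 egg/µL (0 to 186), 47.8 tpm at 5 (0 to 172), 11.6 tpm at 20 (0 to 87.9) and 5.71 tpm at 100 eggs/µL (0 to 46.6). In N2 the medians were 27.4 tpm (5.9 to 126), 19.8 tpm (0 to 96.3), 8.7 tpm (0 to 46.6) and 7.02 tpm (0 to 25.9) in the same order. All 24 *fog-2* and all 23 N2 animals at 100 eggs/µL lay below the median of their strain at 1 egg/µL, although the ranges overlapped. The change was -2.64 ± 0.39 (log2, SE; adjusted p = 6.9e-07), or 6.24-fold lower in tpm + 1, and it was -2.61 ± 0.53 in *fog-2* alone (adjusted p = 0.0017) and -2.68 ± 0.57 in N2 alone (adjusted p = 0.013). The change between the strains differed by 0.07 ± 0.78 (adjusted p = 0.996).

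Of the steps between neighbouring densities, *ugt-11* passed in the one from 5 to 20 eggs/µL. That step was -1.63 ± 0.40 (log2, SE; adjusted p = 0.020), and *ugt-11* was the only member lower in it, against 0.471% of all genes. The steps on either side were -0.48 ± 0.43 from 1 to 5 eggs/µL and -0.53 ± 0.39 from 20 to 100 eggs/µL, and neither passed the test. The step call was lost in 3 of 15 other settings (adjusted p up to 0.67). The change between 100 and 1 egg/µL in *fog-2* alone lost its call in 2 of 16 settings, among them the fit without the animals whose name carries the digit 3 (-2.17, adjusted p = 0.13). The change in N2 alone lost it in 3, among them the fit with the digit in the animals' names as a replicate block (-2.62, adjusted p = 0.065). Another was the fit without the animals of digit 3, which leaves few N2 animals at 1 egg/µL (-2.92, adjusted p = 0.73).

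*ugt-12* (T19H12.9, chromosome V, 4887165 to 4889629), a neighbour of *ugt-11*, was lower as well. Its median in *fog-2* was 25.1 tpm at 1 egg/µL (2.22 to 71.9), 16.8 tpm at 5 (0 to 76.3), 8.78 tpm at 20 (0 to 52.2) and 4.37 tpm at 100 eggs/µL (0 to 55.7). In N2 it was 12.4 tpm (0.64 to 117.6), 11.7 tpm (0 to 69.0), 4.38 tpm (0 to 122) and 6.10 tpm (0 to 58.4). No animal of either strain was listed at 0 at 1 egg/µL, whereas 6 of 24 *fog-2* and 6 of 23 N2 animals were at 100 eggs/µL. The change was -1.78 ± 0.42 over both strains (adjusted p = 0.0026) and -2.04 ± 0.53 in *fog-2* (adjusted p = 0.017). The N2 value, -1.52 ± 0.64, did not pass (adjusted p = 0.40), and the difference between strains was -0.52 ± 0.83 (adjusted p = 0.95). Without the animals of digit 3 the call was lost over both strains (-1.60, adjusted p = 0.11) and in *fog-2* (-1.88, adjusted p = 0.17).

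*ugt-9* (T19H12.1, chromosome V, 4896048 to 4897969) lies on the other side of *ugt-11*. Its medians in *fog-2* were 14.6 tpm at 1 egg/µL (0 to 34.1), 2.20 tpm at 5 (0 to 140), 6.76 tpm at 20 (0 to 65.0) and 0.68 tpm at 100 eggs/µL (0 to 44.9). In N2 they were 9.61 tpm (0 to 23.8), 0 tpm (0 to 111), 5.0 tpm (0 to 20.8) and 0.90 tpm (0 to 49.3). The order of the densities was thus not that of the medians, and the highest single values came at 5 eggs/µL in both strains. The change between 100 and 1 egg/µL was -1.47 ± 0.44 (log2, SE; adjusted p = 0.019) over both strains, and neither strain passed alone (-1.62 ± 0.60 in *fog-2* and -1.32 ± 0.65 in N2). The call was lost in 3 of 16 other settings.

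*ugt-56* (T04H1.8, chromosome V, 12258982 to 12261215), outside that group of genes, was lower in *fog-2*. Its medians there were 57.3 tpm at 1 egg/µL (0 to 252), 31.7 tpm at 5 (0 to 280), 30.8 tpm at 20 (0 to 157) and 9.69 tpm at 100 eggs/µL (0 to 36.3). In N2 they were 9.84 tpm (0 to 43.9), 7.75 tpm (0 to 60.3), 8.69 tpm (0 to 40.0) and 6.75 tpm (0 to 75.0). All 24 *fog-2* animals at 100 eggs/µL were under the *fog-2* median at 1 egg/µL, against 13 of 23 in N2. The change was -2.42 ± 0.62 in *fog-2* (adjusted p = 0.014), -0.27 ± 0.66 in N2 (adjusted p = 0.90) and -1.38 ± 0.47 over both (adjusted p = 0.038). The difference between the strains, -2.15 ± 0.91, did not pass over all genes (p = 0.021, adjusted p = 0.69). The call over both strains was lost in 5 of 16 other settings and that in *fog-2* in 2, one of them without the animals of digit 3 (-2.07, adjusted p = 0.20).

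**Figure D2:**
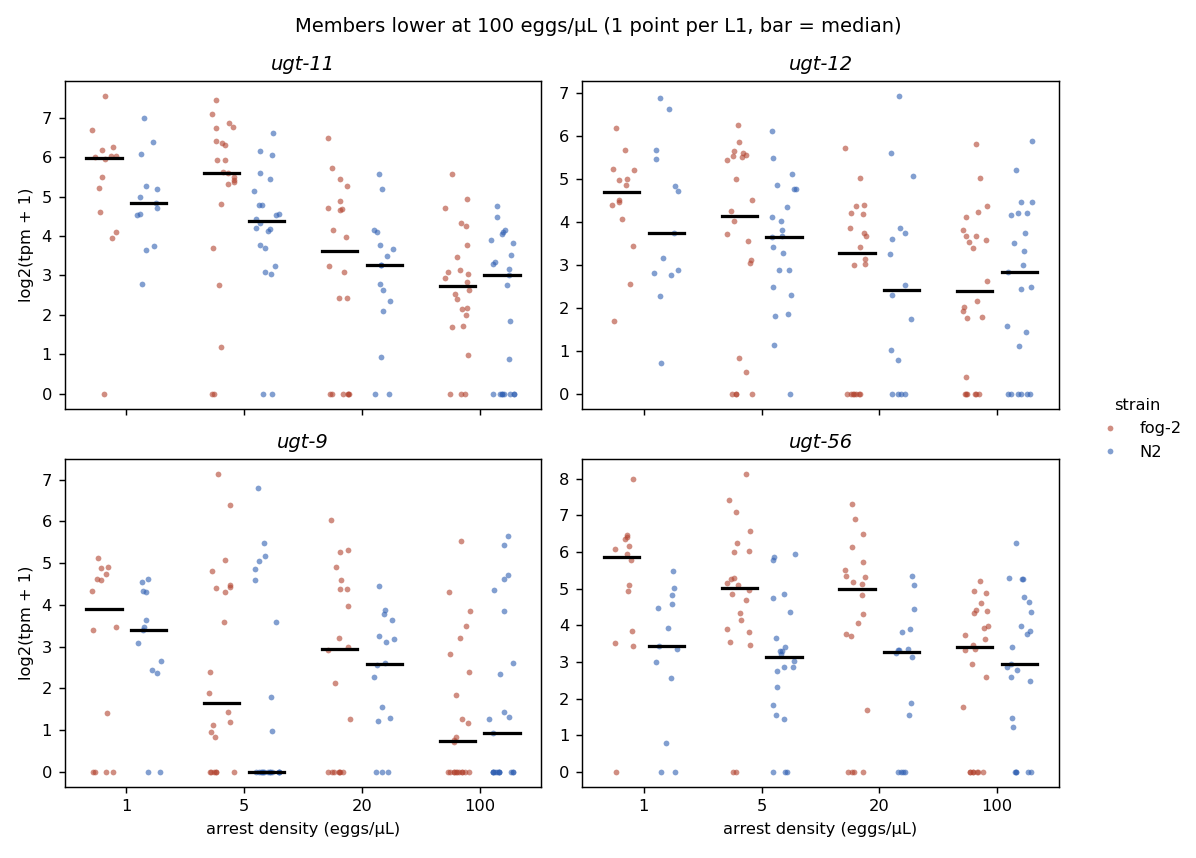
Levels of *ugt-11*, *ugt-12*, *ugt-9* and *ugt-56* in each L1, as log2(tpm + 1) on the y axis, at 4 arrest densities (eggs/µL, x axis) in *fog-2* (red) and N2 (blue), with black bars for medians. The *ugt-11* medians step down between 5 and 20 eggs/µL in both strains, and those of *ugt-56* go from 57.3 to 9.69 tpm in *fog-2* and from 9.84 to 6.75 tpm in N2.

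Of the 4 lower members, 3 were neighbours at one end of the group of 8. T19H12.2, which lies between *ugt-12* and *ugt-11*, had a change of 0.48 ± 0.37 and did not pass (adjusted p = 0.44). The members that follow *ugt-9* along the chromosome had positive changes that did not pass, with 0.66 ± 0.25 for *ugt-10*, 0.30 ± 0.18 for *ugt-67* and 0.55 ± 0.27 for *ugt-8*. *ugt-14* was not tested, and *ugt-13* at the far end had -0.69 ± 0.42 (adjusted p = 0.30). Just past *ugt-13*, H23N18.6, which is not a member, was lower too (-2.02 ± 0.51, adjusted p = 0.0054). Between them H23N18.5 did not pass (0.17 ± 0.34, adjusted p = 0.81), and further on *srh-22*, of a family of predicted chemoreceptors, was higher (0.97 ± 0.26, adjusted p = 0.0091).

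**Figure D3:**
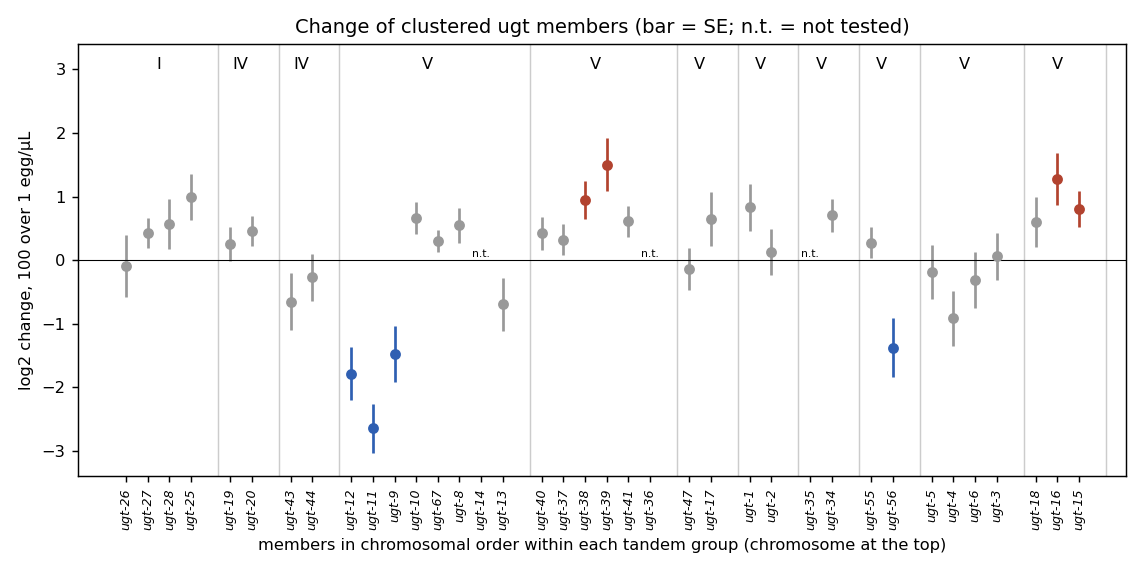
The log2 change between 100 and 1 egg/µL over both strains (y axis, points with SE as bars) for the members of the 11 tandem groups, in chromosomal order along the x axis, with the chromosome named at the top. Blue marks lower, red higher and grey members that did not pass, and *ugt-12*, *ugt-11* and *ugt-9* stand side by side at -1.78, -2.64 and -1.47.

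The likeness of neighbours from animal to animal was low. Over all 154 animals, with each group's mean removed, Pearson's r was 0.35 between *ugt-12* and *ugt-11*, 0.29 between *ugt-12* and *ugt-9* and 0.23 between *ugt-11* and *ugt-9*. Among the 35 members with a mean of 5 tpm or more, the median r was 0.22 over 16 pairs from the same tandem group and 0.13 over 579 other pairs. The highest r, 0.60, was between *ugt-54* on chromosome IV and *ugt-23* on X. The points of a pair share a library, so its depth enters both values.

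The 7 members higher at 100 eggs/µL over both strains were *ugt-39*, *ugt-29*, *ugt-16*, *ugt-49*, *ugt-38*, *ugt-66* and *ugt-15*. *ugt-39* and *ugt-38* belong to the group of 6 on chromosome V, and *ugt-16* and *ugt-15* lie next to each other in another group with *ugt-18*. All 7 calls were lost with the number of detected genes in the fit, and their changes were then between 0.32 and 1.33. Over all other settings, each of the 7 calls was lost in 3 to 10 of 15 or 16. With the detected genes in the fit 4 members remained lower, namely *ugt-11* at -3.16, *ugt-12* at -2.33, *ugt-9* at -1.97 and *ugt-56* at -1.88. Of all genes 0.948% were then higher and 1.7% lower, against 10.3% and 2.05% without that term. The loss of higher calls was thus not particular to the members.

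*ugt-39* (F10D2.2, chromosome V, 7157142 to 7159235) had a median of 14.5 tpm in *fog-2* at 1 egg/µL (0 to 141), 26.1 tpm at 5 (0 to 103), 11.6 tpm at 20 (0 to 108) and 37.3 tpm at 100 eggs/µL (0 to 134). In N2 the medians were 0 tpm (0 to 8.8), 0.79 tpm (0 to 39.5), 0 tpm (0 to 13.7) and 5.97 tpm (0 to 73.5). In N2 10 of 23 animals at 100 eggs/µL exceeded the highest animal at 1 egg/µL, while in *fog-2* none did. The change was 1.5 ± 0.41 over both strains (log2, SE; adjusted p = 0.011), and the step from 20 to 100 eggs/µL was 1.77 ± 0.41 (adjusted p = 0.0021). Neither strain passed alone.

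*ugt-29* (Y49C4A.8, chromosome V, 696524 to 699589) rose at the lowest step. Its median in *fog-2* was 1.54 tpm at 1 egg/µL (0 to 42.9), 16.8 tpm at 5 (0 to 52.9), 13.5 tpm at 20 (0 to 69.7) and 11.7 tpm at 100 eggs/µL (0 to 30.9). In N2 it was 0.61 tpm (0 to 11.8), 7.8 tpm (0 to 53.6), 3.98 tpm (0 to 48.4) and 5.57 tpm (0 to 164). Animals listed at 0 were 5 of 14 in *fog-2* and 6 of 13 in N2 at 1 egg/µL, against 1 of 22 and 2 of 22 at 5 eggs/µL. *ugt-29* was the only member that passed between 5 and 1 egg/µL (2.01 ± 0.42, adjusted p = 0.0025), where 0.683% of all genes were higher and 0.175% lower. That call was lost in 1 of 15 other settings, without the animals of digit 3 (adjusted p = 0.24). Between 100 and 1 egg/µL the change was 1.41 ± 0.43 (adjusted p = 0.022).

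*ugt-49* (AC3.2, chromosome V, 10372321 to 10374261) was the 1 member that passed as higher in the fit of *fog-2* animals. Its median there was 16.4 tpm at 1 egg/µL (0 to 62.3), 25.0 tpm at 5 (0 to 175), 22.1 tpm at 20 (0 to 45.0) and 31.8 tpm at 100 eggs/µL (11.5 to 89.1). In N2 it was 2.31 tpm (0 to 11.4), 3.63 tpm (0 to 25.0), 3.27 tpm (0 to 10.7) and 4.32 tpm (0 to 34.6). In *fog-2* 22 of 24 animals at 100 eggs/µL were above the median at 1 egg/µL, and in N2 14 of 23 were. The change was 1.49 ± 0.45 in *fog-2* (adjusted p = 0.036), 0.70 ± 0.54 in N2 (adjusted p = 0.63) and 1.10 ± 0.35 over both (adjusted p = 0.027). The difference between the strains, 0.79 ± 0.70, did not pass (adjusted p = 0.89). The *fog-2* call was lost in 8 of 16 other settings and was 0.58 (adjusted p = 0.66) with detected genes in the fit.

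*ugt-16* (ZC443.6, chromosome V, 12825024 to 12827442) was listed at 0 in most animals below 100 eggs/µL. In *fog-2* its median was 0 tpm at 1 egg/µL (0 to 6.05), at 5 (0 to 20.9) and at 20 (0 to 6.42), and 1.15 tpm at 100 eggs/µL (0 to 24.5). In N2 every median was 0, with ranges of 0 to 4.46, 0 to 2.72, 0 to 1.43 and 0 to 406 tpm. At 1 tpm or more it was found in 8 of 23 N2 animals at 100 eggs/µL and in 1 of 13 at 1 egg/µL. In *fog-2* it was found in 13 of 24 and in 1 of 14. The filter needed 13 animals, so *ugt-16* was tested only because of the animals at 100 eggs/µL, which limits what its p-value can show. The change was 1.28 ± 0.41 (log2, SE; adjusted p = 0.031), and the call was lost in 7 of 15 other settings, among them the replicate block (1.08, adjusted p = 0.0895) and the fit without digit 3 (1.62, adjusted p = 0.15). Without the 2 N2 animals that stood apart the change was 0.97 (adjusted p = 0.033).

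The remaining higher members were low. *ugt-38* (change 0.94 ± 0.30, adjusted p = 0.025) had a median of 1.64 tpm in *fog-2* at 1 egg/µL (0 to 24.1) and 7.15 tpm at 100 eggs/µL (0 to 27.7). Its N2 medians were 0 at all 4 densities. *ugt-66* (0.80 ± 0.28, adjusted p = 0.047) and *ugt-15* (0.80 ± 0.28, adjusted p = 0.048) were listed at 0 in all 13 N2 animals at 1 egg/µL. These 3 members passed the filter only through the animals at 100 eggs/µL, the group where they were high, and their fitted changes depend on the pseudocount. In N2 at 100 eggs/µL *ugt-66* was at 1 tpm or more in 7 of 23 animals and *ugt-15* in 3.

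**Figure D4:**
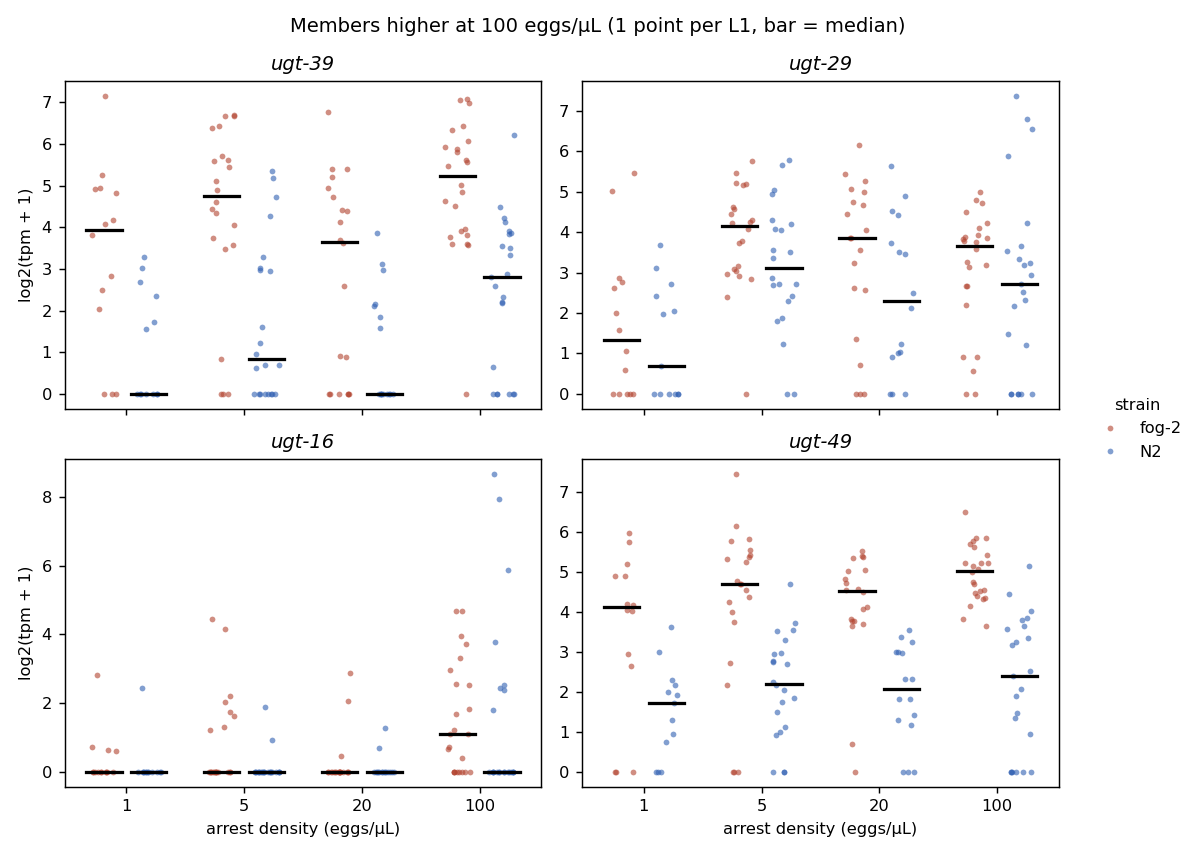
Levels of *ugt-39*, *ugt-29*, *ugt-16* and *ugt-49* in each L1, as log2(tpm + 1) on the y axis, at 4 arrest densities (eggs/µL, x axis) in *fog-2* (red) and N2 (blue), with black bars for medians. *ugt-29* is lowest at 1 egg/µL in both strains, and *ugt-49* is above 0 in all 24 *fog-2* animals at 100 eggs/µL.

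Within single strains few members passed. In *fog-2* 1 member was higher and 3 were lower of 62, where 5.66% of all genes were higher and 1.11% lower. In N2 none was higher and 1 was lower, against 0.079% and 0.17% of all genes, and 11 members had an unadjusted p under 0.05 (17.7%, beside 10.8% of all genes tested). The changes of 49 of the 62 members had the same sign in both strains, which share no animals (79.0%, beside 66.0% of all genes tested). For the difference of the change between strains, 0 members and 0 genes passed in limma (percent called 0), with 3 members and 1113 genes at an unadjusted p under 0.05.

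A line through log10 of the 4 densities used all 154 animals and tested 65 members. It called 10 members higher and 5 lower, against 12.8% and 2.34% of all genes. *ugt-11* had the steepest slope of the members, -1.46 ± 0.20 (log2 per 10-fold density, SE; adjusted p = 1.1e-08), followed by *ugt-12* at -0.91 ± 0.21, *ugt-56* at -0.73 ± 0.22 and *ugt-9* at -0.62 ± 0.23. *ugt-50*, among the highest members, was the fifth lower one, at -0.18 ± 0.07 (adjusted p = 0.047). Its median went from 165 tpm (67.7 to 250) at 1 egg/µL to 117 tpm (73.4 to 233) at 100 eggs/µL in *fog-2* and from 300 tpm (217 to 567) to 211 tpm (100 to 590) in N2, with wide overlap. That call was lost in 6 of 15 other settings. The members with a positive slope included *ugt-16*, *ugt-49*, *ugt-15* and *ugt-66*, and also *ugt-25*, *ugt-33*, *ugt-10*, *ugt-27*, *ugt-42* and *ugt-35*, whose medians were 0 in every group below 100 eggs/µL and in N2, and at most 3.84 tpm in *fog-2* at 100 eggs/µL. Several of these passed the filter mainly through the animals at 100 eggs/µL, which were 10 of the 14 animals with *ugt-35* at 1 tpm or more and 14 of the 18 with *ugt-27*, so their count says little against the background. All 10 higher calls were lost with detected genes in the fit, where 2.22% of all genes were higher. Exons of *ugt-25*, *ugt-10* and *ugt-35* overlap those of *mlst-8*, T19H12.14 and *aqp-6* on the other strand. Reads of these pairs cannot be told apart. Of the slope calls, that of *ugt-25* was lost in 10 of 15 other settings, one of them the fit without the 2 N2 animals that stood apart, that of *ugt-49* in 9 and that of *ugt-9* in 8.

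Between 20 and 100 eggs/µL 8 of 65 members (12.3%) were higher and none was lower, against 8.43% and 0.243% of all genes. With the number of detected genes in the fit, 0 were higher, against 0.28% of all genes. The 8 members were *ugt-39*, *ugt-62*, *ugt-16*, *ugt-25*, *ugt-38*, *ugt-66*, *ugt-27* and *ugt-8*, with changes from 0.64 to 1.77. Of the animals with 1 tpm or more, 14 of 18 for *ugt-27* and 13 of 22 for *ugt-8* were at 100 eggs/µL. These members passed the filter only through that group, so the count says little against the background. *ugt-62* (chromosome III, 4537281 to 4540623) had an N2 median of 21.6 tpm at 1 egg/µL, 8.0 tpm at 5, 4.2 tpm at 20 and 37.4 tpm at 100 eggs/µL. In *fog-2* its medians were 43.9, 45.6, 30.1 and 39.5 tpm, and the step was 1.61 ± 0.46 over both strains (adjusted p = 0.012). From 5 to 20 eggs/µL no member was higher, where 0.0212% of all genes were, and 21.5% of members had a positive change, beside 41.6% of all genes tested.

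Markers of oocytes and early embryos, whose RNA is supplied by the mother, summed to a median of 16.6 tpm in *fog-2* at 1 egg/µL (0 to 31.2) and 66.7 tpm at 100 eggs/µL (12.3 to 482). In N2 the medians were 14.04 tpm (1.11 to 59.0) and 14.5 tpm (0 to 134). Of these 15 markers 8 were higher and 0 lower over both strains, against 10.3% and 2.05% of all genes. They were led by *pos-1*, *spn-4*, *oma-2* and *mex-6*, all RNA-binding or cell-fate regulators of the early embryo. At 1 egg/µL 12 of the 15 had a median of 0 in *fog-2*, and 2 did at 100 eggs/µL. In *fog-2* alone 7 of the 15 were higher, against 5.66% of all genes. In N2 alone 0 of the 15 passed, where only 0.079% of all genes were higher, so the 2 counts show no difference between the strains. The part of these markers in the rises of the members was not tested.

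Intestine markers were present in every group, none with a median of 0, and summed to a median of 4733 tpm (3173 to 6993) in *fog-2* at 1 egg/µL and 6934 tpm (4188 to 14309) at 100 eggs/µL. In N2 their medians were 5324 tpm (3986 to 9763) and 5414 tpm (2041 to 21141). Of the 11 markers 1, the gut cysteine protease gene *cpr-1*, was higher over both strains and none was lower. Excretory cell markers summed to 203 and 202 tpm at 1 and 100 eggs/µL in *fog-2* and to 153 and 199 tpm in N2, with 1 of 8 higher and 0 lower. Both counts stand beside 10.3% of all genes higher and 2.05% lower.

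Other genes of the pathway were counted in the same fit, in which 10.3% of all genes were higher and 2.05% lower. At these shares a list of 7 or 12 genes can hold no call, so such a count says little. None of 7 tested genes for the supply of UDP-sugars, such as the UDP-glucose dehydrogenase gene *sqv-4*, passed in either direction, with a median change of 0.27. The same held for 12 regulators of detoxification, among them the transcription factor genes *skn-1* and *ahr-1*, with a median of -0.07. Of 34 genes for ABC transporters, which export drugs and conjugates, 2 were higher and none lower: *abts-2* by 1.79 ± 0.34 and *haf-8* by 0.91 ± 0.24. Among 157 other detoxification enzymes, mainly cytochrome P450, glutathione S-transferase and short-chain dehydrogenase genes, 40 were higher and 6 lower, with a median of 0.44, where 10.3% of all genes were higher and 2.05% lower, with a median of 0.24. Whether the 40 calls hold with detected genes in the fit, where 0.948% of all genes were higher, was not tested. Nor was it tested whether these genes passed the filter through the animals at 100 eggs/µL only. The cytochrome P450 gene *cyp-13A10* (3.41 ± 0.41) and the glutathione S-transferase gene *gst-19* (2.45 ± 0.41) were higher, and the dehydrogenase gene *dhs-13* was lower (-1.40 ± 0.27).

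The levels of most members differed between the strains. Over all densities the summed level per animal had a median of 2040 tpm in *fog-2* (395 to 3946) and 1072 tpm in N2 (315 to 3641). In a comparison added after the levels had been seen, 43 of 65 members were higher in *fog-2* and 1 was lower, against 34.1% and 7.45% of all genes. The median change of the 65 members was 0.62, beside 0.24 over all genes. The higher count was 28 with detected genes in the fit and 27 after quantile normalization, where 19.3% and 19.4% of all genes were higher. Tissue markers moved between the strains as well, in both directions. In *fog-2* 3 of 4 body wall muscle markers were lower (median -0.76), as were 2 of 3 pharynx markers (median -1.05). Of 11 intestine markers 4 were lower and 1 higher (median 0.10). Higher were 3 of 8 excretory cell markers (median 0.44), 2 of 5 neuron markers (median 0.09) and 4 of 15 oocyte and early embryo markers (median 0.31). For hypodermis and germ line 1 of 4 each was higher, and in these lists 0 were lower. These higher counts come from short lists and stand beside 34.1% of all genes, so they say little about the tissues. The part of the markers in the levels of the members was not tested. Larvae of *fog-2* came from matings and those of N2 from hermaphrodites, and the sex of the larvae is not given. Each strain was deposited as a table of its own, and strain, mating, sex, culture and processing cannot be told apart.

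*ugt-54* (T25B9.7, chromosome IV, 10761698 to 10764415) had the largest difference of the members on the log2(tpm + 1) scale, which damps low members. Its medians were 200 tpm (13.8 to 402), 164 tpm (27.04 to 446), 209 tpm (87.4 to 377) and 153 tpm (7.23 to 317) in *fog-2* from 1 to 100 eggs/µL. In N2 they were 25.2 tpm (0.64 to 142), 23.1 tpm (3.52 to 190), 31.0 tpm (4.50 to 156) and 34.9 tpm (0 to 144). Of the 80 *fog-2* animals 78 were above the N2 median, and the difference was 2.60 ± 0.20 (log2, SE; adjusted p = 2.5e-24). It passed in all 15 other settings.

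Several further members stood apart in the same direction. *ugt-2* was higher in *fog-2* by 2.41 ± 0.25, *ugt-5* by 2.31 ± 0.28, *ugt-39* by 2.30 ± 0.30 and *ugt-49* by 2.27 ± 0.24. *ugt-2* and *ugt-5* lie in different tandem groups on chromosome V, and neither passed between the densities (0.12 ± 0.36 and -0.18 ± 0.43, 100 against 1 egg/µL). Among the highest members, *ugt-18* (1.39 ± 0.25), *ugt-23* (1.26 ± 0.18) and *ugt-46* (0.71 ± 0.14) were higher in *fog-2*. *ugt-11* and *ugt-12*, which fell with density, differed by 0.48 ± 0.29 and 0.07 ± 0.30, and neither passed.

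*ugt-50* (T07C5.1, chromosome X, 12691573 to 12695652) was the 1 member lower in *fog-2*, by -0.96 ± 0.10 (log2, SE; adjusted p = 1.4e-16). None of the 80 *fog-2* animals was above the N2 median, and 7 of 74 N2 animals were below the *fog-2* median. An exon of *ugt-50* overlaps one of *nhr-26*, a nuclear hormone receptor gene, on the other strand.

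**Figure D5:**
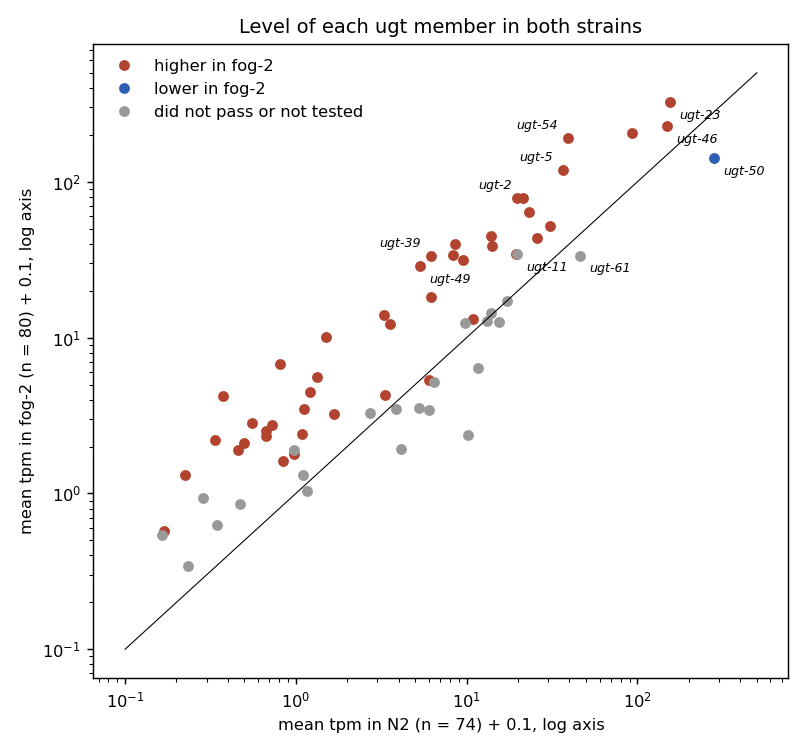
Mean level of each of the 67 members in *fog-2* (80 animals, y axis) against N2 (74 animals, x axis), as tpm + 0.1 on log axes, with a line where both are equal. Red marks the 43 members higher in *fog-2* and blue *ugt-50*, the 1 lower member, and *ugt-54* lies far above the line.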

How the data were processed

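Single L1 larvae were lysed and sequenced after Smart-Seq2 amplification. Before deposit the authors discarded ribosomal and duplicate reads, and RSEM gave the transcript levels. The deposited values are tpm per transcript row, in 1 table per strain, and the submitters' processing notes name Bowtie, RSEM and ce11. Read depth is not kept in tpm, so no counting interval is given. The 47639 rows were summed to 46743 genes. Of 154 columns, 146 matched 1 sample title and 8 *fog-2* columns at 1 egg/µL matched their group only. Values were tested as log2(tpm + 1) with limma 3.58.1 (R 4.3.3, trended variance, two-sided, Benjamini-Hochberg threshold 0.05), with strain as a term, for genes at 1 tpm or more in at least 13 animals. The 100 against 1 egg/µL fits used the animals of those densities only, and the slope and step fits used all animals. The limma fit over both strains was tested on values of these animals shuffled within each strain, with known changes put into some genes. The other limma fits were not tested in that way.

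Members named are those past the threshold in any comparison of densities or in the difference between strains, *ugt-11* and the 6 with the highest medians. For *fog-2* against N2 they are the 5 with the largest log2 change, the 1 lower and members named before, and these and the neighbouring genes of the group of 8 were chosen after their values were seen. At most 4 are named per list beside them. Members and lists were chosen with earlier results of these data known. The 16 alternatives changed the pseudocount, filter, normalization, isoform summing, covariates, animals or weights. The *fog-2* against N2 comparison and the fit without the 2 animals apart were added after seeing the data. The labels do not say what the digits in animal names mean, and they were not used to pair samples. The deviations of same-digit means at 1 and 100 eggs/µL correlated at -0.13 to 0.13. Some means rested on very few animals, with 1 animal for digit 1 in N2 at 1 egg/µL, so these values cannot exclude pairing. Coordinates are from the Ensembl annotation of WBcel235. No sequences are shown.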

Additional observations from a re-analysis of the deposited data

How the results depend on the processing

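Of 854 member values recomputed under other settings, 675 kept their direction and their side of the threshold, 179 kept the direction but no longer passed, and 0 reversed. The change of *ugt-11* over both strains passed in all 16 settings, with values from -3.16 to -1.27. The fit on normal scores of ranks gives a value that is not on the log2 scale, so this range mixes units. Counts of members called in a comparison stayed within 1.5 times in 219 of 278 cases, and the 59 others follow. The cause of these moves was not tested.

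Between 100 and 1 egg/µL over both strains, the count of higher members (7) was 12 with all animals in 1 fit, 11 with array weights, 4 with the 5 tpm filter or with no filter, 3 with a pseudocount of 5 tpm, 1 with quantile normalization, 0 with detected genes as covariate, 2 with means by name digit, 4 with the digit as a replicate block and 1 without digit 3. The lower count (4) was 7 with array weights, 2 with means by digit and 1 without digit 3. In *fog-2* the higher count (1) was 7 with all animals in 1 fit, 3 with a pseudocount of 0.5 tpm, 2 with the replicate block and 0 with array weights, detected genes, means by digit, no filter, normal scores, a pseudocount of 5 tpm, quantile normalization or without animals under 500000 aligned reads. The *fog-2* lower count (3) was 5 with array weights, 6 with detected genes and 0 with means by digit or without digit 3. The N2 lower count (1) was 0 with means by digit, the replicate block or without digit 3.

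For the slope, the higher count (10) was 3 with the 5 tpm filter, 0 with detected genes, 4 with means by digit, 5 with a pseudocount of 5 tpm, 1 with quantile normalization, 6 without digit 3 and 4 without animals under 500000 aligned reads. The lower count (5) was 9 with detected genes, 1 without digit 3 and 3 with the 5 tpm filter, means by digit, no filter or without animals under 500000 reads. From 20 to 100 eggs/µL the higher count (8) was 0 with detected genes, 4 with means by digit, 2 with quantile normalization and 5 without animals under 500000 reads. From 5 to 20 eggs/µL the lower count (1) was 2 with array weights and 0 with means by digit, without digit 3 or without animals under 500000 reads. From 1 to 5 eggs/µL the higher count (1) was 0 without digit 3. Between strains the higher count (43) was 28 with detected genes and 27 with quantile normalization, and the lower count (1) was 3 and 4 there and 2 with aligned reads as covariate or without animals under 500000 reads.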
